A study of Mus musculus with 2 samples.

Results

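The genes described here are 10 regulators and markers of the naive, quiescent state of T cells: Foxo1, Foxo3, Foxp1, Bach2, Satb1, Id3, Ets1, Igfbp4, Dapl1 and Tob1. They were chosen by name, out of 18193 genes that the platform annotation pairs with at least 1 probe set of their own, and every probe set assigned to exactly 1 of them was used, 37 in all. The choice of these genes, and of the gene lists used below, was made with earlier results of these data known. Counts set against all measured genes are therefore descriptions. A further probe set, listed for Foxo3 together with a second gene, was left out. RNA came from splenic CD4+Foxp3+ regulatory T cells (Tregs) sorted from naive 10-week-old mice on the C57BL/6 background, with 1 array from DNR mice, named for a dominant negative TGF-beta receptor II, and 1 array from wild-type (WT) mice. The sources used here do not state which promoter drives the dominant negative receptor, how many mice gave each RNA or how Foxp3 was detected, and the genotype was not checked. The sorting text names DNR mice for both samples, so genotype was taken from the genotype label. With 1 array per genotype there is no replicate, no test and no error between mice, and each difference below is one between these 2 RNA samples.

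Naive T cells are held out of the cell cycle by an active programme. FOXO factors switch on homing and survival genes and leave the nucleus when antigen receptor or cytokine signals activate the kinase AKT, FOXP1 maintains quiescence, and BACH2 represses effector genes by occupying sites that AP-1 factors would use. Tregs contain a resting, lymphoid-homing subset that uses this programme and an effector subset that has largely left it. TGF-beta restrains T cell activation, and a dominant negative receptor blunts that signal.

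The files hold MAS5 signals, 1 linear intensity per probe set and array. A floor was set at a signal of 110.9, the higher of the arrays' medians, and lower values were raised to it before log2 was taken. A probe set above the floor on at least 1 array is called measured, and each gene is represented by its brightest probe set. Treg identity was checked on both arrays: all 8 identity genes examined were above the floor on both arrays, with Foxp3 at 4550 in DNR Tregs against 3754 in WT Tregs, and none differed by 2-fold. The 18 bacterial hybridisation spike-in probe sets all gave more signal on the DNR array (median 1.95-fold), and whether this affects the ratios was not tested.

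All 10 genes had a lower signal in DNR than in WT Tregs on their brightest probe set. The log2 ratio, DNR over WT, ranged from -1.16 for Igfbp4 to -0.06 for Id3, with a median of -0.59, which is a 1.51-fold lower signal, against a median of 0.01 over all 11927 measured genes. Of all measured genes 48.6% were lower on the DNR array, and among the 9281 genes that, like all 10, exceeded the floor on both arrays, 53.5% were. Only Igfbp4 was lower by at least 2-fold, against 2.93% of measured genes, and none of the 10 was higher by 2-fold, against 4%. At 1.5-fold, a threshold added after the values were seen, 5 genes were lower (Igfbp4, Foxp1, Bach2, Dapl1 and Satb1) and 0 higher, against 9.85% and 12.8% of measured genes. Foxo1 was just short of 1.5-fold, with 1.498-fold. Macrophage and monocyte markers were lower too (7 of 7 measured, 2 of them by at least 2-fold, median log2 ratio -0.57). The part of macrophage RNA in these lower signals was not tested. For scale, probe sets for one gene disagreed with a robust SD of 0.36 per probe set on the log2 scale over 3968 genes, and it holds no variation between mice or sorts. The cells were a bulk sorted population, in which fewer cells of a type and less RNA per cell cannot be told apart.

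**Figure D1:**
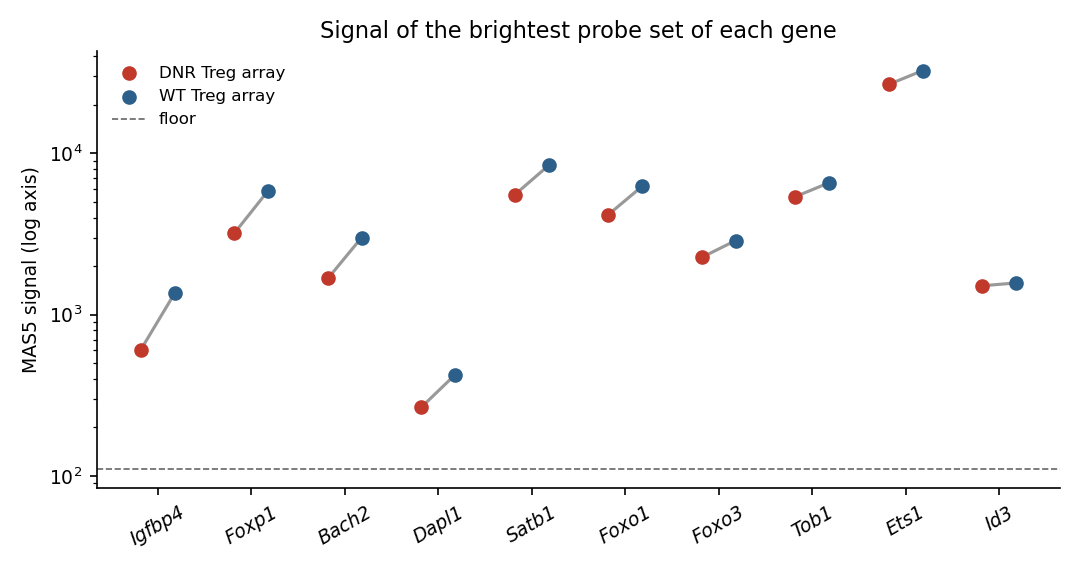
MAS5 signal (log axis) of the brightest probe set of each gene on the DNR array (left point) and the WT array (right point), with genes ordered by log2 ratio and the floor of 110.9 as a dashed line. All 10 lines slope upward to the WT array, most steeply for Igfbp4 and hardly at all for Id3.

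**Figure D2:**
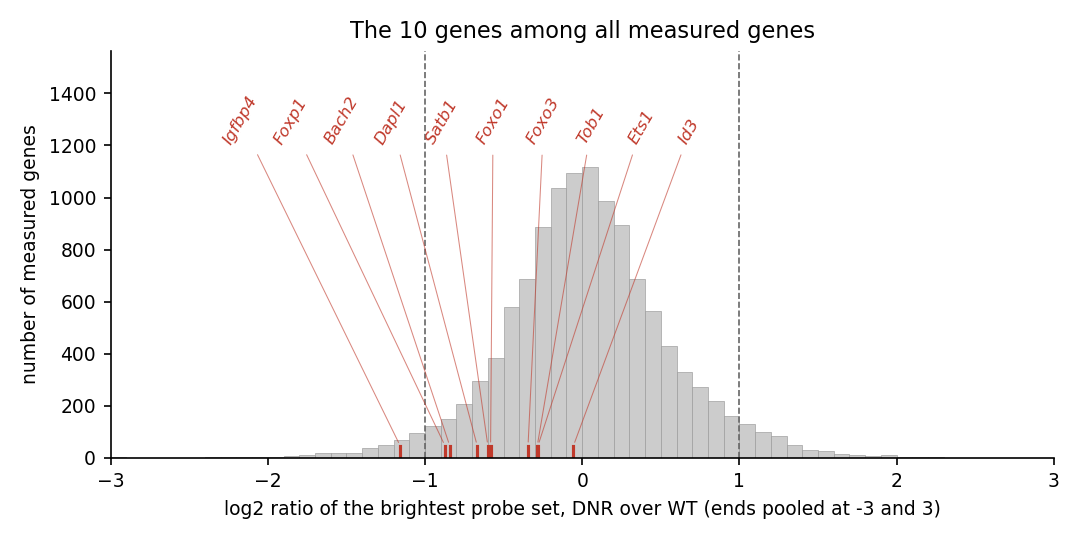
Number of measured genes by log2 ratio (DNR over WT) of the brightest probe set, with the 10 genes marked in red and dashed lines at 2-fold. The 10 genes lie in the left part of the distribution, from -1.16 to -0.06, while the median of all 11927 genes is 0.01.

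Foxp1 encodes a forkhead repressor that keeps naive T cells quiescent and, in mouse T cells, opposes FOXO1 at the gene of the interleukin-7 receptor. Its brightest probe set (1421140_a_at) had a signal of 3203 in DNR Tregs against 5861 in WT Tregs, 1.83-fold lower. The probe set 1455242_at had 1916 in DNR Tregs against 4571 in WT Tregs, 2.39-fold lower, and 1421142_s_at had 1076 in DNR Tregs against 2493 in WT Tregs, 2.32-fold lower. All 8 probe sets of Foxp1 were above the floor on both arrays and all 8 were lower in DNR Tregs. The probe set 1435222_at had 2150 in DNR Tregs against 4125 in WT Tregs. The probe set 1421141_a_at had 1202 in DNR Tregs against 2265 in WT Tregs, and 1435221_at had 1008 in DNR Tregs against 2037 in WT Tregs. Their log2 ratios, -0.94, -0.91 and -1.01, lie close to that of the brightest probe set. The 2 dimmest probe sets stood at 533 in DNR Tregs against 703 in WT Tregs (1438802_at), and at 181 in DNR Tregs against 375 in WT Tregs (1443258_at). Over the 8 probe sets the fold ran between 1.32 and 2.39, with a median log2 ratio of -0.98, and 4 of the 8 reached 2-fold, against 3.30% of the 20764 measured probe sets with a single gene. Among 362 genes with at least 5 measured probe sets, 6.63% had all of them lower. The 8 probe sets were designed from 4 source sequences and read the same RNA, so they repeat the measurement of the transcript and not of the animals. Of the 10 genes, Foxp1 is the one whose probe sets gave the most readings in the same direction, and it also has the most probe sets.

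Foxo1 encodes the FOXO factor that sustains lymph node homing and interleukin-7 receptor expression in naive T cells. Its brightest probe set (1416983_s_at) had 4167 in DNR Tregs against 6242 in WT Tregs, 1.498-fold lower. The probe set 1416981_at had 4033 in DNR Tregs against 5138 in WT Tregs, and 1416982_at had 1229 in DNR Tregs against 1921 in WT Tregs. These 3 came from the same source sequence, and all were lower, by 1.27-fold to 1.56-fold. The fourth probe set (1456529_at) was below the floor on both arrays, with 16.6 in DNR Tregs against 48.8 in WT Tregs, so it gives no ratio. Foxo3, a relative of Foxo1 with overlapping functions in Tregs, had 2265 in DNR Tregs against 2876 in WT Tregs on its brightest probe set (1434831_a_at), 1.27-fold lower. Its second probe set (1434832_at) showed nearly equal signals, 1369 in DNR Tregs against 1406 in WT Tregs. The third was below the floor on both arrays. The Foxo3 difference is thus smaller than 1 SD of a single probe set, and Foxo1 and Foxo3 were not tested against each other.

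Genes that FOXO factors are known to switch on in T cells or other cells were examined beside them. Of 11 such genes with a probe set 10 were measured, 9 were lower in DNR Tregs and 1 higher, and 3 were lower by at least 2-fold, against 2.93% of all measured genes. Their median log2 ratio was -0.72. On the second brightest probe set, available for 5 of them, 3 were lower and 2 higher, 1 by at least 2-fold in each direction, with a median of -0.18. The genes lower by at least 2-fold on their brightest probe set were Ccr7, Bcl2l11 and Klf2. Ccr7 is the chemokine receptor for entry into lymph nodes, Bcl2l11 encodes the pro-apoptotic protein BIM, and Klf2 is a transcription factor of recirculating T cells. Bcl2l11 had 633 in DNR Tregs against 1508 in WT Tregs, 2.38-fold lower. Ccr7 had a log2 ratio of -1.31 and Klf2 of -1.19. S1pr1, the sphingosine phosphate receptor for exit from lymphoid tissue and a target of KLF2, had 1038 in DNR Tregs against 1977 in WT Tregs, 1.91-fold lower. The exception to the direction was Il7r, with 7985 in DNR Tregs against 7279 in WT Tregs, and it is named after its value was seen. Macrophage markers were lower as well, as given with the other cell types below.

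Bach2 encodes a repressor that keeps T cells, Tregs included, from effector differentiation. Its brightest probe set (1436515_at) had 1675 in DNR Tregs against 3003 in WT Tregs, 1.79-fold lower. The second (1437667_a_at) had 1382 in DNR Tregs against 1877 in WT Tregs, 1.36-fold lower. The third (1445460_at) exceeded the floor only on the WT array, with 102 in DNR Tregs against 136 in WT Tregs, so that it was at least 1.23-fold lower. All 3 came from different source sequences and all were lower, though the size differed between them.

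Genes that BACH2 is known to repress had the opposite direction. Of 8 measured genes 7 were higher in DNR Tregs and 1 lower, 4 were higher by at least 2-fold, against 4% of measured genes, and the median log2 ratio was 1.12. Prdm1, which encodes the effector regulator BLIMP-1, had 690 in DNR Tregs against 277 in WT Tregs, 2.49-fold higher. Gzmb (granzyme B) had a log2 ratio of 2.90, Ifng (interferon-gamma) of 1.52 and Klrg1, a receptor of terminally differentiated Tregs, of 1.24. The list was put together with the large differences of Gzmb, Ifng and Klrg1 already known, so its direction is a description. Neutrophil markers were also higher, in 3 of 4 measured genes, all 3 by at least 2-fold, against 4% of measured genes, with a median log2 ratio of 1.37. With the floor at the 60th percentile, 1 was higher by at least 2-fold and the median was 0.78. Of these, S100a8 and Ngp exceeded the floor on the DNR array alone, so their ratios are bounds. The neutrophil signals were low (a summed signal of 1389 in DNR Tregs against 609 in WT Tregs over 7 genes), and S100a9, Camp and Ltf were below the floor on both arrays. Of 5 measured CD8 T and NK cell markers, 3 were higher and 2 lower. Klrd1 was 1.56-fold higher and Cd8b1 1.72-fold lower. Ncr1 exceeded the floor on the DNR array alone, with 168 in DNR Tregs against 9.61 in WT Tregs. The part of neutrophil, CD8 T or NK cell RNA in the BACH2 count was not tested.

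Igfbp4, Foxp1 and Bach2 had the 3 largest absolute log2 ratios among the 10 genes, all of which were lower on their brightest probe sets. The 250 bases upstream of each annotated start of these 3 genes are shown for sequence context. The sequences are from RefSeq on GRCm38.p6, 5′ to 3′ on the strand of the gene. Foxp1, on the minus strand of chromosome 6, has 3 starts in the table, with upstream bases at chr6:99520994-99521243 (start 1), chr6:99266516-99266765 (start 2) and chr6:99028299-99028548 (start 3). Bach2 lies on the plus strand at chr4:32417185-32417434 and Igfbp4 on the plus strand at chr11:99040994-99041243. Capitals mark matches, on either strand, to 5 motifs: GTAAACA (FOXO), CCGGAAG (ETS), TGANTCA (AP-1), CAGAC (SMAD) and CAGGTG (E box).
Foxp1 start 1: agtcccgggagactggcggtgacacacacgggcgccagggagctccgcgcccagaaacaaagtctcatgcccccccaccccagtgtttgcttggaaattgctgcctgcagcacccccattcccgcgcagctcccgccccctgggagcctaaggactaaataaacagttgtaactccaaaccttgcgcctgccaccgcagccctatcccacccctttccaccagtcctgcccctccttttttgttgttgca
Foxp1 start 2: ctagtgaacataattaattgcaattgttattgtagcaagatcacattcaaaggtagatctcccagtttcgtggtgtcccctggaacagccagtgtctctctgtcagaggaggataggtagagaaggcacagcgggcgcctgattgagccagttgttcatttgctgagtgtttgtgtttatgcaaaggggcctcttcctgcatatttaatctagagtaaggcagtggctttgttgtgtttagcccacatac
Foxp1 start 3: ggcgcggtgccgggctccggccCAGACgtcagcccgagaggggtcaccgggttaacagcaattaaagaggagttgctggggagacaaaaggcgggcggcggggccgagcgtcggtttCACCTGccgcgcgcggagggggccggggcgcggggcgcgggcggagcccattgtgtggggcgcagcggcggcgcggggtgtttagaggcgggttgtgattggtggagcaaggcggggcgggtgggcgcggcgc
Bach2: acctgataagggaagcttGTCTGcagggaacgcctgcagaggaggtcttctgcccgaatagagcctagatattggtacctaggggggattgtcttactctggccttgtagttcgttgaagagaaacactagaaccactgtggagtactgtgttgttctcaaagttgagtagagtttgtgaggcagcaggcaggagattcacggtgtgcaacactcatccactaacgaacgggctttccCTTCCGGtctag
Igfbp4: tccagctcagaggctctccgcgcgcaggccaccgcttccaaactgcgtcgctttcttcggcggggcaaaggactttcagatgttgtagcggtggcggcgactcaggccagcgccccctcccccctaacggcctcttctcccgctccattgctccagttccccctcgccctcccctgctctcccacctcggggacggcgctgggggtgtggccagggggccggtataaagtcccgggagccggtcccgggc

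Foxp1 start 3 holds a CAGAC match 224 to 228 bases before the start and an E box match, and the Bach2 window holds a CAGAC match and, 6 to 12 bases before the start, an ETS match. The windows of Foxp1 starts 1 and 2 and of Igfbp4 hold none of the 5. Over the 15 windows found for 9 of the 10 genes, CAGAC occurred in 8, the E box in 2, and the FOXO and ETS motifs in 1 each. The FOXO match was upstream of Dapl1. Of all 32851 upstream windows in the table, 42.2% hold CAGAC, 17.2% the E box, 6.91% the ETS motif, 6.75% the AP-1 motif and 3.17% the FOXO motif. A match of letters is a description and not a bound site, and a missing match says only that these letters are not in these 250 bases.

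**Figure D3:**
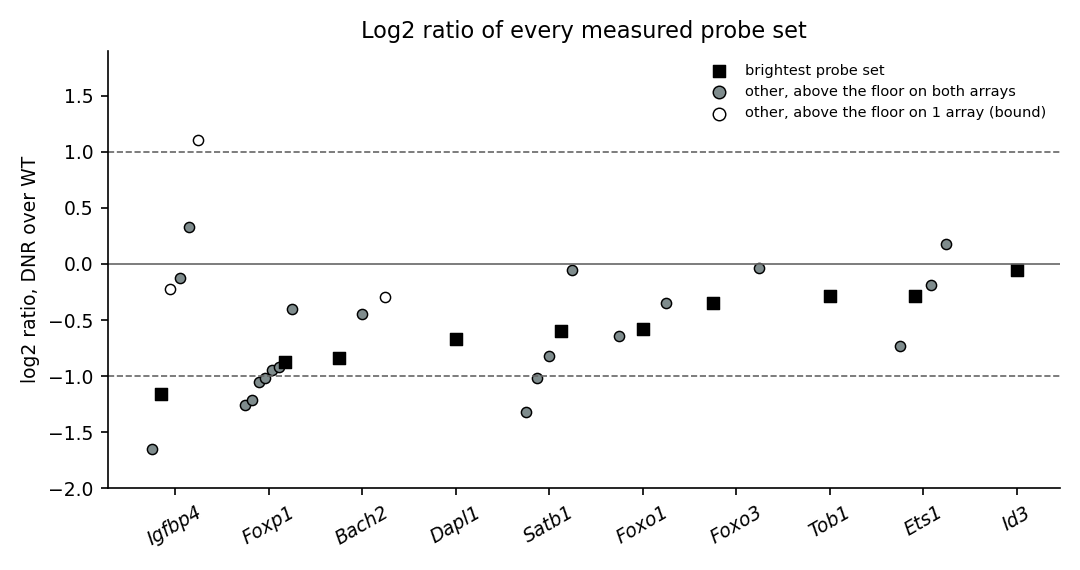
Log2 ratio (DNR over WT) of each of the 34 measured probe sets, with black squares for the brightest probe set of a gene, grey circles for others above the floor on both arrays and open circles for those above it on 1 array, whose ratio is a bound. The 8 probe sets of Foxp1 lie together below 0, between -1.25 and -0.40, while those of Igfbp4 spread between -1.65 and 1.10.

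Satb1 encodes a chromatin organiser that sets up T cell gene programmes and that Foxp3 is known to hold down in Tregs. Its brightest probe set (1416008_at) had 5548 in DNR Tregs against 8408 in WT Tregs, 1.52-fold lower. The probe set 1416007_at, from the same source sequence, had 4205 in DNR Tregs against 7421 in WT Tregs, 1.76-fold lower. The probe set 1436182_at had 743 in DNR Tregs against 1847 in WT Tregs, 2.49-fold lower. All 5 probe sets of Satb1 were lower. The probe set 1439449_at stood at 600.1 in DNR Tregs against 1212 in WT Tregs, 2.02-fold lower. The fifth (1439315_at) was close to the floor, with 120 in DNR Tregs against 124 in WT Tregs. Of the 5, 2 reached 2-fold, and the spread of their log2 ratios, from -1.31 to -0.05, shows that the size of the Satb1 difference depends on the probe set.

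Ets1 encodes an ETS factor needed for T cell survival and for stable Foxp3 expression. Its brightest probe set (1426725_s_at) had 26783 in DNR Tregs against 32577 in WT Tregs, 1.22-fold lower, and 1452163_at, from the same source sequence, had 21881 in DNR Tregs against 24932 in WT Tregs, 1.14-fold lower. The other source sequence gave one probe set in each direction. The probe set 1422028_a_at had 824 in DNR Tregs against 1370 in WT Tregs, while 1422027_a_at had 767 in DNR Tregs against 676 in WT Tregs. The log2 ratios of Ets1 thus ran from -0.73 to 0.18, with a median of -0.24 over 4 probe sets.

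Id3 encodes an inhibitor of E protein transcription factors that helps to maintain Tregs in mice. Its only probe set (1416630_at) had 1510 in DNR Tregs against 1571 in WT Tregs, a log2 ratio of -0.06, the smallest of the 10. The measurement therefore gives no difference in Id3 that stands out from the disagreement between probe sets, although 1 array per genotype cannot show that the levels are equal. Id2, the inhibitor more typical of effector cells, had 7612 in DNR Tregs against 4381 in WT Tregs, 1.74-fold higher, but its log2 ratio was -0.12 when only probe sets without an s, x or a suffix were used. Id1 exceeded the floor only on the WT array and was at least 1.51-fold lower. The E protein genes Tcf3 and Tcf12 had log2 ratios of -0.06 and -0.11, though Tcf12 had -0.87 on its second brightest probe set and 0.79 without suffixed probe sets, and Tcf3 is named after its value was seen. Tcf4 had 343 in DNR Tregs against 202 in WT Tregs. Among these 5 genes of E and ID proteins 3 were lower and 2 higher, and none reached 2-fold at this floor.

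Tob1 encodes an antiproliferative protein of the BTG/TOB family that brings the CCR4-NOT deadenylase to mRNAs and, in human T cells, is lowered on activation. Its probe set above the floor (1423176_at) had 5386 in DNR Tregs against 6569 in WT Tregs, 1.22-fold lower. The other (1440844_at) was below the floor on both arrays, with 20.1 in DNR Tregs against 30.8 in WT Tregs. Of 7 measured genes for CCR4-NOT subunits and the poly(A)-binding protein PABPC1, 3 were lower and 4 higher, with a median log2 ratio of 0.02 and none past 2-fold. Cnot3 was the most different, with 483 in DNR Tregs against 697 in WT Tregs, 1.44-fold lower. The Tob1 difference is below 1 SD of a single probe set.

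Igfbp4 encodes a secreted binding protein of insulin-like growth factors, and its transcript marks naive T cells. Its brightest probe set (1437405_a_at) had 607 in DNR Tregs against 1354 in WT Tregs, 2.23-fold lower. The probe set 1437406_x_at, from the same source sequence, had 278 in DNR Tregs against 873 in WT Tregs, 3.14-fold lower. The other 4 probe sets gave mixed readings. The probe set 1423757_x_at had 634 in DNR Tregs against 692 in WT Tregs, and 1423756_s_at, from the same source, had 410.3 in DNR Tregs against 326 in WT Tregs. The probe set 1421992_a_at was above the floor on the DNR array alone, with 238 in DNR Tregs against 85.0 in WT Tregs, at least 2.15-fold higher. The last (1421991_a_at) was above it on the WT array alone, with 31.6 in DNR Tregs against 129 in WT Tregs, at least 1.16-fold lower. The 6 probe sets of Igfbp4 thus gave 4 lower and 2 higher readings, 2 of them at least 2-fold lower and 1 at least 2-fold higher. Every one carries an a, s or x suffix, which marks probe sets able to bind more than 1 transcript. The median log2 ratio over the 6 was -0.17, so that the only difference past 2-fold on a brightest probe set among the 10 genes rests on 1 source sequence.

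Dapl1, a gene related to death-associated protein whose transcript is found in resting T cells, has 1 probe set (1453568_at). It had 267 in DNR Tregs against 423 in WT Tregs, 1.59-fold lower, and no second probe set bears on it.

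Other quiescence genes shared the direction of the 10. Of 16 measured genes 15 had a lower signal in DNR Tregs, against 48.6% of all measured genes, 1 reached 2-fold, and the median log2 ratio was -0.53. Some of the 15 hardly differed: Btg1 (-0.01), Peli1 (-0.03), Cblb (-0.04) and Runx1 (-0.05), named after their values were seen. The gene past 2-fold was Klf2, which the FOXO-regulated list also holds. Tsc22d3, which encodes the glucocorticoid-induced protein GILZ, had 3932 in DNR Tregs against 7381 in WT Tregs, 1.88-fold lower. Cdkn1b, which encodes the cyclin-dependent kinase inhibitor p27, also counts in both lists and had 4378 in DNR Tregs against 8065 in WT Tregs, 1.84-fold lower, with a log2 ratio of -0.48 on its second brightest probe set. Zeb1, a zinc finger repressor, had 1548 in DNR Tregs against 2649 in WT Tregs, but its log2 ratio was 0.95 on its second brightest probe set and 0.15 when its probe sets were summarised by their median. On the second brightest probe set 9 of 12 such genes were lower, with a median of -0.29.

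Markers of other cells that a splenic sort could hold moved in part with these results. All 7 measured macrophage and monocyte markers were lower on the DNR array, with a median log2 ratio of -0.57, close to that of the 10 genes, though 6 of 7 were with quantile normalization and 5 of 6 without suffixed probe sets, and the median was -0.03 over the 2 genes with a second probe set above the floor throughout. The summed signal of the 8 markers was 3446 in DNR Tregs against 4861 in WT Tregs, and of these Cd14 was below the floor on both arrays. C1qa, a complement chain of macrophages, had 330 in DNR Tregs against 788 in WT Tregs, 2.39-fold lower. C1qc had 185 in DNR Tregs against 386 in WT Tregs, 2.08-fold lower. These were the 2 of 7 measured macrophage and monocyte markers lower by at least 2-fold, against 2.93% of all measured genes. B cells also express several of the 10, such as Bach2, Foxp1 and Ets1. Of 7 B cell markers with a probe set 4 were measured, 3 of them higher on the DNR array and 1 of these past 2-fold, and the summed signal was 1598 in DNR Tregs against 1049 in WT Tregs. The inhibitory receptor gene Cd22 had 444 in DNR Tregs against 162 in WT Tregs, 2.74-fold higher, and Cd79b, a chain of the B cell antigen receptor, had 869 in DNR Tregs against 666 in WT Tregs. Fcrla, also counted as higher, was near the floor on the DNR array (119) and below it on the WT array. The lower gene, Ms4a1, exceeded the floor only on the WT array, with 76.4 in DNR Tregs against 126 in WT Tregs. Among the defining B cell genes, Cd79a, Blnk and Pax5 were below the floor on both arrays. The CD8 T and NK cell markers had a summed signal of 1181 in DNR Tregs against 1050.5 in WT Tregs over 5 genes, 3 higher and 2 lower, with a median log2 ratio of 0.41 that was -0.51 over the 2 genes with a second such probe set. Of 3 erythroid genes with a probe set only Klf1 was measured, near the floor on the DNR array and below it on the WT array.

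**Figure D4:**
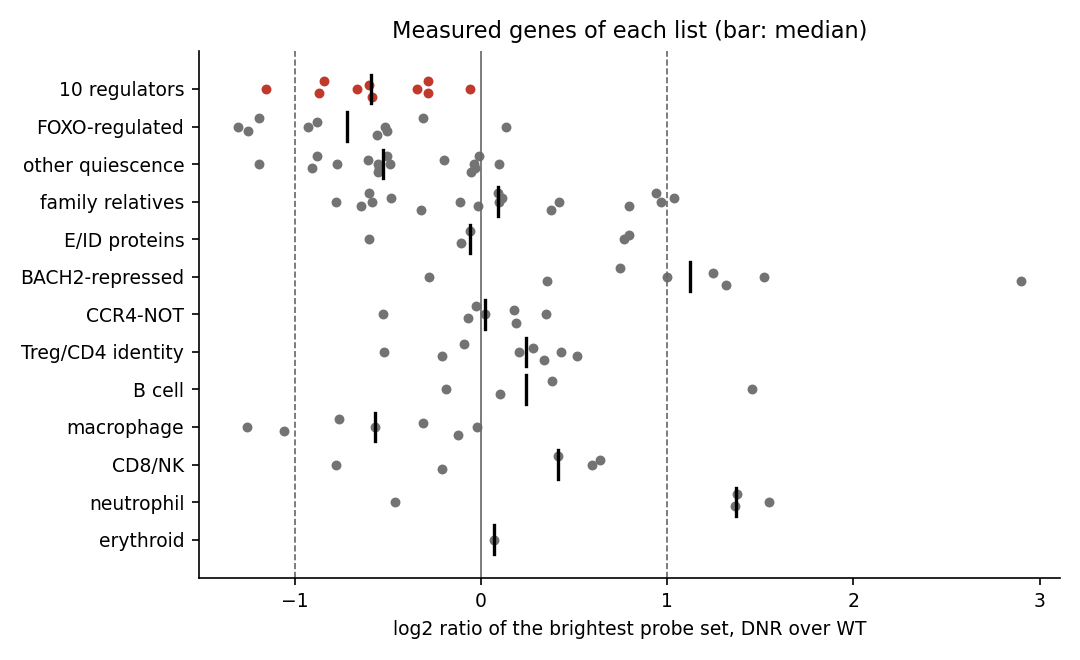
Log2 ratio (DNR over WT) of the brightest probe set of each measured gene, by list, with a black bar at the list median, dashed lines at 2-fold and the 10 regulators in red. The medians of the 10 regulators (-0.59), of FOXO-regulated genes (-0.72) and of other quiescence genes (-0.53) lie left of 0, as does that of macrophage markers (-0.57). The median of BACH2-repressed genes lies at 1.12 and that of neutrophil markers at 1.37.

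Setting the genes side by side, 3 kinds of reading were found. Foxp1, Bach2, Satb1 and Foxo1 were lower on every measured probe set, of which they have 8, 3, 5 and 3. That trait is not particular to them, since 8 of the 10 genes had every measured probe set lower. Foxo3 has 2 such probe sets, and Id3, Tob1 and Dapl1 have 1 each. Foxo3, Tob1, Ets1 and Id3 differed by 1.27-fold or less on their brightest probe set. Igfbp4 was lower by more than 2-fold on both probe sets of one source sequence and mixed on its others, where 1 of the readings is a lower bound on a decrease, and Dapl1 rests on a single dim probe set. Of the 34 measured probe sets of the 10 genes 31 were lower in DNR Tregs, against 48.5% of all measured probe sets with a single gene. Of these, 8 were lower by at least 2-fold (4 of Foxp1, 2 of Satb1 and 2 of Igfbp4), against 3.30%, and 1 was higher by that much, against 3.93%. Probe sets of one gene read the same RNA, and several share a source sequence, so these counts are not of independent readings. Among the 7 genes with at least 2 measured probe sets 5 had all of them lower, against 21.6% of 5148 such genes.

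**Figure D5:**
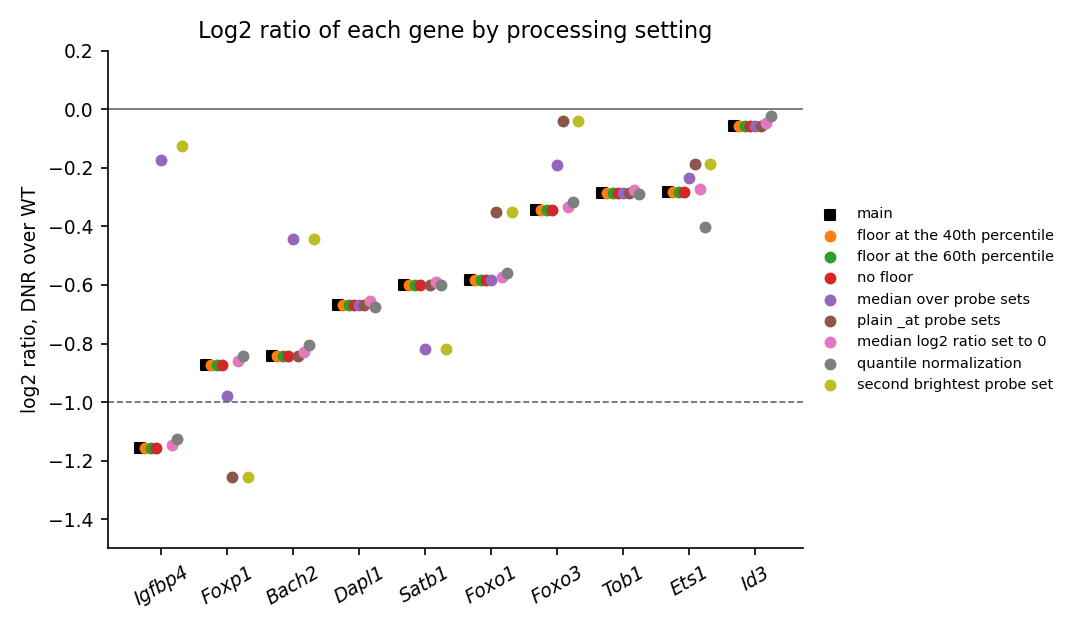
Log2 ratio (DNR over WT) of each of the 10 genes under the main setting (black squares) and 8 other processing settings (coloured circles), with a dashed line at 2-fold lower. All points lie below 0, Igfbp4 moves between -1.16 and -0.13 and Foxp1 between -1.25 and -0.84.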

How the data were processed

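Per the submitters' processing notes, the authors summarised each Affymetrix array with MAS5, and the deposited values are intensities on a linear scale. Neither the version nor the scaling is given in the sources used here; with 2% of values trimmed at each end both arrays had a mean of 500.0. Of 45101 probe sets 64 controls were set aside. The platform annotation gave exactly 1 gene to 34945 of the other 45037. The remaining 10092, without a single gene of their own, do not stand for any gene here.

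From the intensities, a floor of 110.9 was applied, log2 ratios of the DNR over the WT array were taken, and the probe set with the highest mean signal stood for its gene (Python 3.11.15, pandas 2.3.3, numpy 2.4.6). A ratio with 1 side below the floor is a bound. A difference was described past 2-fold. With 1 array per genotype no test was possible, and the number of arrays limits the precision. All 10 genes and up to 4 genes per list with the largest absolute log2 ratios were named. Others are marked as chosen after their values were seen or as below the floor. The members and lists were chosen with earlier results of these data known. The alternatives were 3 floors, 2 choices of probe set and 2 scalings, with a further probe set choice and a 1.5-fold threshold added after the data were seen. The procedure was tested on simulated data, with changes larger than any found in the 10 genes and placed in bright genes only. That test does not bear on the smaller differences described here.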

Additional observations from a re-analysis of the deposited data

How the results depend on the processing

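The direction of all 10 genes was the same under each of the 7 alternatives of floor, probe set and scaling that gave them a value; Igfbp4 had none when only probe sets without an s, x or a suffix were used, which left 9 of 9 lower. On the second brightest probe set, available for 7 of the genes, 7 were lower. Of all genes, 52.6% were lower on that probe set and 49.7% without suffixed probe sets. The share lay between 47.3% and 51.4% in the other settings. The median log2 ratio of the genes stayed between -0.35 and -0.59. The number of genes past the threshold was 1 in each setting, except for 0 with the median over probe sets and 5 at the 1.5-fold threshold. The gene was Igfbp4 in most, and Foxp1 (-1.25) where suffixed probe sets were left out or the second brightest was used. Of all genes, 14.6% were at least 2-fold lower without a floor, a larger share than 1 of the 10. That share was between 2.23% and 3.91% in the other settings at 2-fold, and 9.85% were lower at 1.5-fold. Igfbp4 was at -0.17 with the median over probe sets and -0.13 on its second brightest, and Bach2 was at -0.44 in both; the cause was not tested. Floors changed none of the 10 ratios, since all 10 brightest probe sets exceeded each floor. Some list medians under 2-fold turned: on the second brightest probe set that of CD8 and NK markers was -0.51 (against 0.41), of Treg identity genes -0.20 (0.24) and of CCR4-NOT genes -0.17 (0.02), and without suffixed probe sets that of E and ID proteins was 0.36 (-0.06); with the median over probe sets that of CCR4-NOT genes was -0.04, and at a 60th percentile floor that of family relatives was -0.01 (0.09). The medians of the FOXO-regulated, quiescence and BACH2-repressed lists kept their sign wherever they had a value, but Ccr7, Klf2, Prdm1, Gzmb, Ifng and Klrg1 have no second probe set that exceeds the floor on each array, so nothing within the array repeats them. No paired analysis was possible because each genotype has 1 array.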

Other observations

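Relatives of the 10 genes, in the same gene families, went both ways on their brightest probe sets. Of 17 measured relatives 8 had a lower signal in DNR Tregs and 9 a higher one, with a median log2 ratio of 0.09, and none was lower by 2-fold at this floor, while 1 was with a floor at the 40th percentile. On the second brightest probe set 2 of 9 were lower and 7 higher, with a median of 0.41. Fli1, an ETS factor, had 4492 in DNR Tregs against 2340 in WT Tregs, 1.92-fold higher, where Ets1 was 1.22-fold lower. The second brightest probe set of Fli1 had a log2 ratio of 0.42. The other ETS factors among the relatives, named after their values were seen, went both ways. Ets2 was lower, with 3734 in DNR Tregs against 6402 in WT Tregs. Elk4 was lower too, with 4256 in DNR Tregs against 6394 in WT Tregs. Gabpa was slightly lower, while Elf1 was higher, with 6055 in DNR Tregs against 4531 in WT Tregs. Igfbp7 had 306 in DNR Tregs against 149 in WT Tregs, 2.05-fold higher, and Igfbp5 had 278 in DNR Tregs against 142 in WT Tregs, 1.95-fold higher, both at low signals and with log2 ratios of 0.87 and 0.73 when the floor was at the 60th percentile. Tob2, a relative of Tob1 named after its value was seen, had 20613 in DNR Tregs against 19294 in WT Tregs.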
